A study of Mus musculus with 6 samples.

Results

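Nrarp and 9 genes of the Notch signalling pathway are described here in 6 lines of mouse embryo fibroblasts, primary cells grown out of embryos. The genes are the receptors Notch1, Notch2 and Notch3, the ligands Jag1 and Dll1, the DNA-binding factor Rbpj, and the target genes Nrarp, Hes1, Hey1 and Heyl. They were taken by symbol, as 18 of the 20380 Affymetrix probe sets that name exactly 1 gene, and stand for 10 of 12393 genes. The set was chosen by the low level of Nrarp in unstable lines, so every difference between unstable and stable lines among its genes is given as a description with no test.

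The 3 chromosomally unstable lines were 2 BubR1 H/H lines (9515 and 9938), with hypomorphic alleles of the spindle checkpoint kinase BubR1 and wild-type CDC20, and 1 CDC20 AAA/AAA line (10074), with a mutated mitotic activator CDC20, which the labels also class as hypomorphic, and wild-type BubR1. The 3 stable lines were wild type at both loci, 2 being BubR1 +/+ (9515 and 9938) and 1 CDC20 +/+ (10074). All lines were grown for 2 passages without a treatment that differed between them, and each number joins 1 unstable and 1 stable line into a pair. CDC20 is represented by 1 pair only, and whether each line is from its own embryo is not in the labels, so a p-value here covers line-to-line spread, which may be technical. Every value is a log2 level after the authors' normalization, and a log2 level of 4 is used as a floor under which a level is not interpreted. The number of arrays limits the precision.

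The Bub1b transcript, which encodes BubR1, measured 6.15, 6.43 and 7.00 in unstable lines 9515, 9938 and 10074, against 7.81, 8.51 and 7.61 in the stable lines, so that it was lower in each pair, the CDC20 pair included. All 10 fibroblast markers lay above the floor on every array. Of 10 endothelial markers 7 lay below it on every array, among them Pecam1 and Cdh5, and of 8 epithelial markers 5 did, among them Epcam and Cdh1. Of 12 macrophage and leukocyte markers 11 were above the floor in every line, with median levels of 7.45, 10.01 and 9.02 in unstable lines 9515, 9938 and 10074 and 7.77, 10.00 and 10.21 in the stable lines. Both lines of pair 9938 carried the female transcript Xist, at 10.70 in the unstable and 11.16 in the stable line, and the other 4 lines had it at 2.24 to 2.94. Embryo sex thus cannot be told apart from pair 9938, nor mutated locus from pair 10074. Pairs 9515 and 10074 were alike in having low Xist, and pairs 9515 and 9938 share the mutated locus. In these bulk samples fewer cells of a type and less RNA per cell cannot be told apart either.

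Notch receptors are membrane proteins that are cut when a ligand on a neighbouring cell binds them. The freed intracellular domain enters the nucleus and, with Rbpj and a Mastermind coactivator, switches on target genes, of which the HES and HEY repressors and Nrarp are the best known. Nrarp, a small ankyrin-repeat protein, binds the nuclear Notch complex and dampens its output, and is thus both a target and a brake. In mesenchymal tissue the pathway is known for its part in the formation of vascular smooth muscle and pericytes.

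Nrarp, the target with the largest difference in the set, was lower in the unstable line of every pair, and all 3 unstable lines lay below all 3 stable lines. Its brighter probe set measured 7.73, 7.93 and 6.73 in unstable lines 9515, 9938 and 10074, against 8.98, 8.46 and 8.13 in stable lines 9515, 9938 and 10074. The means were 7.46 ± 0.64 in unstable and 8.52 ± 0.43 in stable lines (SD, n = 3 each), a difference of -1.06 on the log2 scale, or 2.08-fold. Within pairs it was 2.38-fold lower in 9515, 1.45-fold lower in 9938 and 2.62-fold lower in 10074. The groups were close at their nearest point: the lowest stable line, 10074, stood 0.20 above the highest unstable line, 9938, less than the pooled SD of 0.54. The unstable CDC20 line stood 0.99 below the next line, and without it the difference was -0.70. Macrophage markers, all 11 of those past the filter, had lower means in unstable lines too (pair medians -0.22, 0.13 and -1.19); their part in the Nrarp level was not tested.

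The second probe set of Nrarp gave the same separation at a dimmer signal. It measured 4.09, 3.88 and 3.32 in unstable lines 9515, 9938 and 10074, against 5.36, 4.77 and 4.69 in stable lines, so 2 unstable lines were below the floor and the sizes are approximate. Its pair differences were -1.27, -0.89 and -1.37, and its groups were 0.60 apart, more than its pooled SD of 0.38. The difference in pair 9938 was thus -0.53 by the brighter and -0.89 by the dimmer probe set, while the other pairs gave nearly the same size by both. Among 8382 genes past the filter on low values, Nrarp had the 12th lowest difference, which is the value it was picked for.

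The promoter windows of Nrarp and Notch3 are shown because these genes had the lowest and the highest difference of the set. Capitals mark the E-box CACGTG and the N-box CACNAG, searched on both strands, which HES and HEY repressors are known to bind. Both windows are RefSeq sequence of GRCm38.p6, 300 bases around an annotated start site, written 5′ to 3′ along the gene; Nrarp lies at chr2:25180508-25180807 on the plus strand and Notch3 at chr17:32166841-32167140 on the minus strand.
Nrarp: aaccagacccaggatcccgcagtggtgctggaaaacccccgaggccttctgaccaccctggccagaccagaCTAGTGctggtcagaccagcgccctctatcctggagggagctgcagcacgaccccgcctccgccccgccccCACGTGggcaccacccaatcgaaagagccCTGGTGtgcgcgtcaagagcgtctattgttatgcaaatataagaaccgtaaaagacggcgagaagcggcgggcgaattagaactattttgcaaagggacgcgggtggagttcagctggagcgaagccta
Notch3: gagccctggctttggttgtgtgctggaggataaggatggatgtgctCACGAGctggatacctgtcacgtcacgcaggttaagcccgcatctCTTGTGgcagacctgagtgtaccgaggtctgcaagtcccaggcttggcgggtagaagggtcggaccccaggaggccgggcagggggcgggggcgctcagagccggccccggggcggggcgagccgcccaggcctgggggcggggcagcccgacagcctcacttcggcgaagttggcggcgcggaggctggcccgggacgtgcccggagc
With the start site counted as 0, the Nrarp window holds an E-box whose first base is at -108 and N-boxes at -179 and -79, and the Notch3 window holds N-boxes at -204 and -159. The core letters bound by Rbpj, TGGGAA, are in neither window on either strand. Of 32851 mouse promoter windows of this length, 7.2% hold the E-box, 42.5% the N-box and 25.6% the Rbpj core. Of the 8849 windows of genes past the filter on low values, 10.0% hold the E-box, 39.7% the N-box and 22.5% the Rbpj core. No motif overlaps another in these windows. Windows were found for 7 of the 10 genes, not for Hes1, Hey1 and Heyl, and Rbpj itself has 2 overlapping windows, of which 1 holds 2 Rbpj cores, a count reached by 3.8% of all windows. A match describes these letters and is not a measured binding site.

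**Figure D1:**
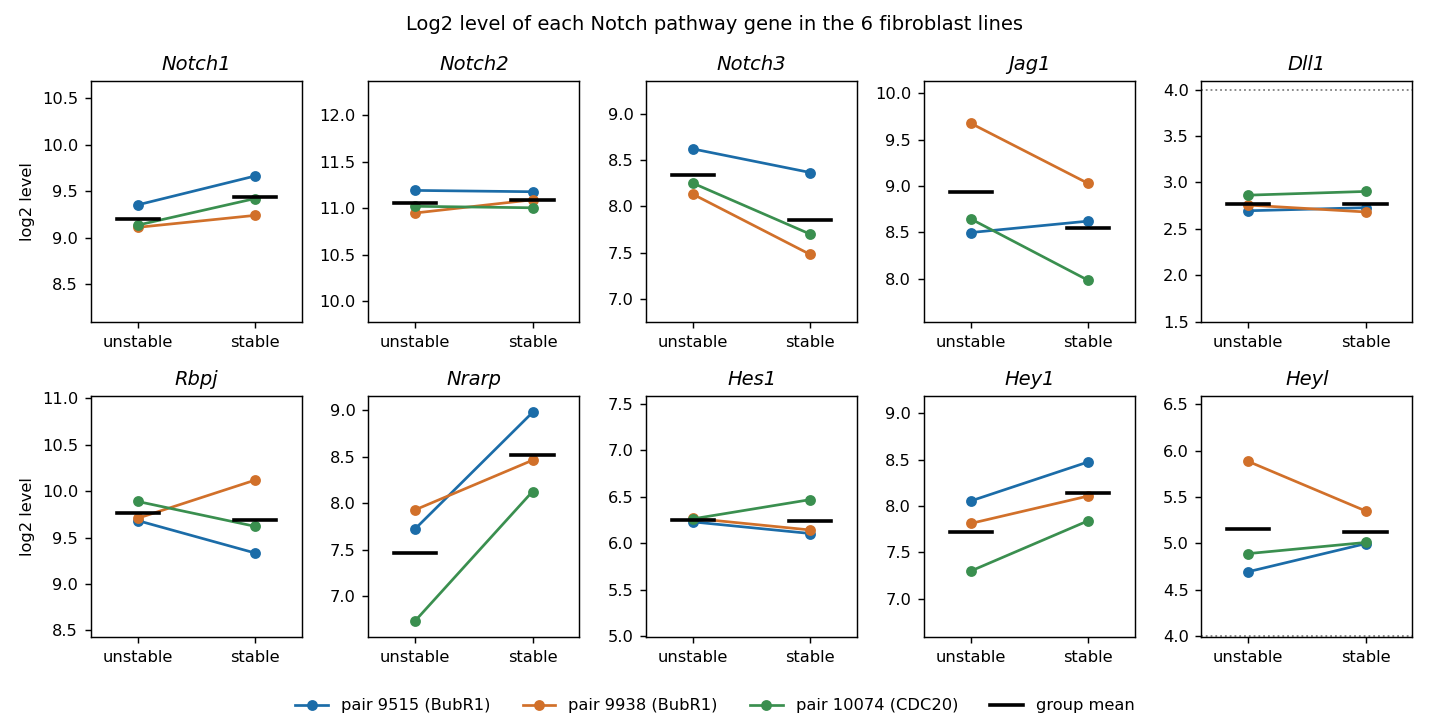
Log2 level (y axis, each panel spanning the same 2.6 units) of the brightest probe set of each gene in the unstable (left) and stable (right) line of pairs 9515, 9938 and 10074, joined by a line, with group means as bars and the floor of 4 dotted. Nrarp is the gene whose 3 unstable lines all lie under its 3 stable lines; Hey1 and Notch1 slope the same way in each pair and Notch3 the other way.

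Hey1, a repressor of the HEY family and the target with a level pattern close to that of Nrarp, was also lower in every unstable line than in its partner. It measured 8.05, 7.81 and 7.30 in unstable lines 9515, 9938 and 10074, against 8.47, 8.11 and 7.84 in the stable lines. The unstable line 9515 stood above the stable line 10074, so the groups overlapped, and pairs shifted together. Means were 7.72 ± 0.39 in unstable and 8.14 ± 0.32 in stable lines (SD, n = 3 each), a difference of -0.42, with pair differences of -0.42, -0.30 and -0.54. Without the unstable line 10074 the difference was -0.21. Hey1 had 1 probe set, so its sizes could not be set against another.

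The other targets did not share this direction. Hes1, the best known repressor of the HES family, lay between 6.23 and 6.27 in the unstable lines and between 6.11 and 6.47 in the stable lines. Its mean difference was 0.01 on the log2 scale. The Hes1 differences were 0.13 in both BubR1 pairs and -0.21 in the CDC20 pair; 19.2% of all genes had the BubR1 pairs on one side and the CDC20 pair on the other.

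Heyl, a HEY relative known from vascular smooth muscle, measured 4.70, 5.88 and 4.89 in unstable lines 9515, 9938 and 10074, against 5.00, 5.35 and 5.01 in stable lines. Both lines of pair 9938 were the highest, and the pair differences of -0.30, 0.53 and -0.12 pointed both ways. The second probe set of Heyl placed the pair 9938 lines on top too, at 6.09 in the unstable and 5.29 in the stable line, with pair differences of -0.02, 0.80 and -0.66. The third lay below the floor on every array.

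Among the receptors, Notch3 was higher and Notch1 lower in the unstable line of every pair. Notch3, a receptor known from pericytes and smooth muscle, measured 8.62, 8.13 and 8.25 in unstable lines 9515, 9938 and 10074, against 8.37, 7.48 and 7.70 in stable lines. The groups overlapped because the stable line 9515 stood above the unstable lines 9938 and 10074. Means of Notch3 were 8.33 ± 0.25 in unstable and 7.85 ± 0.46 in stable lines (SD, n = 3 each), a difference of 0.48, or 1.40-fold, with pair differences of 0.25, 0.65 and 0.55. Its other probe set gave 0.14, 0.58 and 0.72, with the 6 lines in the same order. The Notch3 difference ranged from 0.30 without the stable line 9938 to 0.74 without the stable line 9515. The brighter Notch3 probe set is of the kind that can match several transcripts, and the other is not.

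Smooth muscle and pericyte markers were set beside Notch3. Their median level was 7.60, 7.87 and 7.84 in unstable lines 9515, 9938 and 10074, against 7.01, 6.25 and 7.06 in the stable lines. On every array but that of the stable line 9938 this median is the level of a single gene, Myh11. Taken gene by gene over the 9 markers past the filter, the median differences were 0.14, 0.09 and -0.09 in pairs 9515, 9938 and 10074. Over group means the median difference was 0.03. The log2 of their summed level was 14.20 to 14.42 in unstable and 14.19 to 14.48 in stable lines, so the sum overlapped. Linear levels were summed, so this rests mostly on the brightest markers, Acta2 (13.07 to 13.49) and Tagln (12.13 to 12.66). Of the 9 markers past the filter, 4 were higher in all 3 pairs, where 16.9% of all genes were, and 1 was lower in all 3, where 19.3% were. That 1 was Cspg4, the pericyte proteoglycan NG2. It measured 9.003, 8.311 and 8.951 in unstable lines 9515, 9938 and 10074, against 9.372, 9.183 and 9.340 in the stable lines. Groups did not overlap in 1 of the 9 with unstable lines below (Cspg4), as in 6.41% of all genes. They did not overlap in 2 with unstable lines above (Myh11 and Rgs5), as in 3.54% of all genes. Rgs5 measured 5.83, 5.11 and 5.56 in unstable and 4.98, 3.41 and 4.70 in stable lines, the stable line 9938 being below the floor. The smooth muscle myosin gene Myh11 measured 7.60, 7.87 and 7.84 in unstable and 7.01, 5.75 and 7.06 in stable lines, and the actin gene Acta2 13.18, 13.07 and 13.37 in unstable and 13.17, 13.21 and 13.49 in stable lines. The pericyte potassium channel gene Abcc9 was below the floor in all lines. Kcnj8 of the same list did not pass the filter, at 4.043, 3.872 and 4.265 in unstable and 3.622, 3.344 and 3.561 in stable lines. The part of these cells in the Notch3 difference was not tested.

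Notch1 measured 9.35, 9.11 and 9.14 in unstable lines 9515, 9938 and 10074, against 9.66, 9.24 and 9.42 in stable lines. Its pair differences of -0.31, -0.13 and -0.29 were matched by -0.21, -0.22 and -0.17 for its dimmer probe set. The groups overlapped for both probe sets, the mean difference of -0.24 was 1.18-fold, and it shrank to -0.13 without the stable line 9515. Notch2, with levels of 10.95 to 11.19 in unstable and 11.00 to 11.18 in stable lines, was the receptor with the narrowest range. The second Notch2 probe set lay below the floor on every array.

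Jag1, a ligand of the Jagged class, measured 8.50, 9.68 and 8.65 in unstable lines 9515, 9938 and 10074, against 8.62, 9.03 and 7.99 in stable lines. It was higher in the unstable line of pairs 9938 and 10074, by 1.57-fold and 1.58-fold, and 1.09-fold lower in pair 9515. Its mean difference of 0.40 fell to 0.03 without the unstable line 9938. Its dimmer probe set had pair differences of 0.26, 0.28 and 0.29. All lines of pairs 9515 and 10074 were below the floor there, so only pair 9938 can be set against the brighter probe set. Dll1, a ligand of the Delta class, lay between 2.68 and 2.90 in all 6 lines, below the floor, and was not interpreted.

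Rbpj, which carries the Notch domain to DNA, measured 9.68, 9.71 and 9.89 in unstable lines 9515, 9938 and 10074, against 9.33, 10.12 and 9.62 in stable lines. Its pair differences were 0.35, -0.41 and 0.27, and those of its second probe set were 0.31, -0.07 and 0.26. Pair 9938 thus stood apart from the other pairs in direction by both, and the group means differed by 0.07.

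Of the 9 genes past the filter, 3 were lower in the unstable line of all 3 pairs (Nrarp, Hey1 and Notch1), where 19.3% of all genes were. Notch3 alone was higher in all 3, where 16.9% of all genes were. Nrarp alone had non-overlapping groups with unstable lines below, as 6.41% of all genes did, and none had them above, as 3.54% did. Since the set was picked from this contrast, nothing is read from these counts. The median difference of the 9 genes was 0.01, beside -0.01 for all genes.

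**Figure D2:**
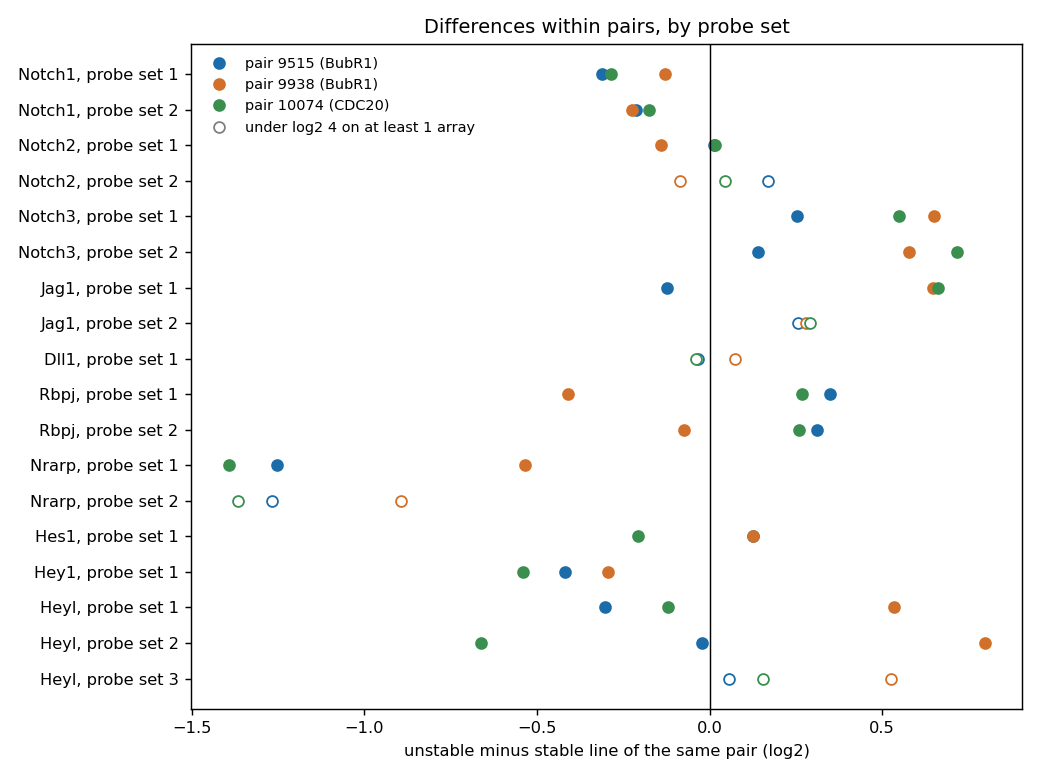
Difference between the unstable and the stable line of each pair (x axis, log2) for all 18 probe sets, with open points where at least 1 array is below the floor. Both Nrarp probe sets lie left of 0 in all pairs, and both Notch3 probe sets lie right of 0. Pair 9938 lies opposite to the others for both probe sets of Rbpj and of Notch2, for Dll1 and for 2 of the 3 Heyl probe sets.

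The unstable and stable lines were compared over the whole table with limma, and 0 of 8382 genes passed at an adjusted p under 0.05 (0% higher and 0% lower); 359 had an unadjusted p under 0.05. The comparison of BubR1 H/H with BubR1 +/+ lines alone also called 0% in either direction, with 264 genes at an unadjusted p under 0.05. In that comparison Nrarp differed by -0.89, Hey1 by -0.36, Notch1 by -0.22 and Notch3 by 0.45.

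Whether the genes responded unlike in BubR1 and CDC20 lines is a question that the choice of the set does not fix. The BubR1 minus CDC20 difference between effects was 0.50 (SE 0.39) for Nrarp, 0.18 (SE 0.32) for Hey1, -0.10 (SE 0.67) for Notch3 and 0.07 (SE 0.35) for Notch1. None of the 9 genes passed (each at an adjusted p of 0.9995 by limma), nor did any other gene (0% in either direction, 133 genes at an unadjusted p under 0.05). When the replicate block was in the fit, standard errors were 0.36 for Nrarp, 0.21 for Hey1, 0.26 for Notch3 and 0.21 for Notch1, and again none of the 9 passed (adjusted p = 0.999 each by limma). The effects are not shown to be alike by this.

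The other genes of the pathway were counted from lists by role. Of 62 such genes 52 had a probe set and 38 passed the filter, and 0 of the 38 passed the limma test between unstable and stable lines in either direction, against 0% of all genes. Of the 38, 20 were lower and 18 higher over the group means, with a median of -0.01, as for all genes. Lower in all 3 pairs were 7 of 38, against 19.3% of all genes, and higher in all 3 were 4 of 38, against 16.9%. Groups did not overlap in 4 genes with unstable lines below (Lfng, Spen, Ctbp1 and Hdac1) and in 1 with them above (Cir1), against 6.41% and 3.54% of all genes.

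Lfng, the Lunatic fringe enzyme that adds a sugar to Notch and changes its response to ligands, had the smallest unadjusted p of these. It measured 5.20, 5.25 and 4.75 in unstable lines 9515, 9938 and 10074, against 5.53, 5.57 and 5.61 in stable lines. The stable lines lay close together (SD 0.04), and the unstable CDC20 line was the lowest. Its difference of -0.50 (SE 0.15) did not pass limma's test over all genes (adjusted p = 0.999). In the other direction Cir1, a corepressor that binds Rbpj, measured 7.07, 7.11 and 7.24 in unstable and 6.91, 6.76 and 7.00 in stable lines, a difference of 0.25 (SE 0.10) that did not pass either (adjusted p = 0.999 by limma).

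Of the nuclear complex and corepressor genes, 7 of 15 were lower and 8 higher, with a median of 0.0003. Besides Cir1, those named here for a small unadjusted p were all lower. Spen, a large corepressor scaffold, differed by -0.20 (SE 0.10), the corepressor Ctbp1 by -0.13 (SE 0.09), the histone deacetylase Hdac1 by -0.21 (SE 0.15) and the splicing and Rbpj cofactor Snw1 by -0.11 (SE 0.09). Kat2a, a histone acetyltransferase, differed by -0.17 (SE 0.12), and Dtx2, a Deltex ubiquitin ligase, by -0.21 (SE 0.14). Within pairs, Kat2a was higher in the unstable line of pair 9515 (0.15) and Dtx2 in that of pair 9938 (0.08). None of these passed (adjusted p = 0.999 each by limma). Of the other roles, 8 of 11 genes of glycosylation and proteolysis were lower, with a median of -0.05, and 2 of 7 adaptor and turnover genes, with a median of 0.09. Hes2, Hes3, Hes5 and Hes7 did not pass the filter on low values, nor did Notch4, Jag2, Dll3 and Dll4.

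**Figure D3:**
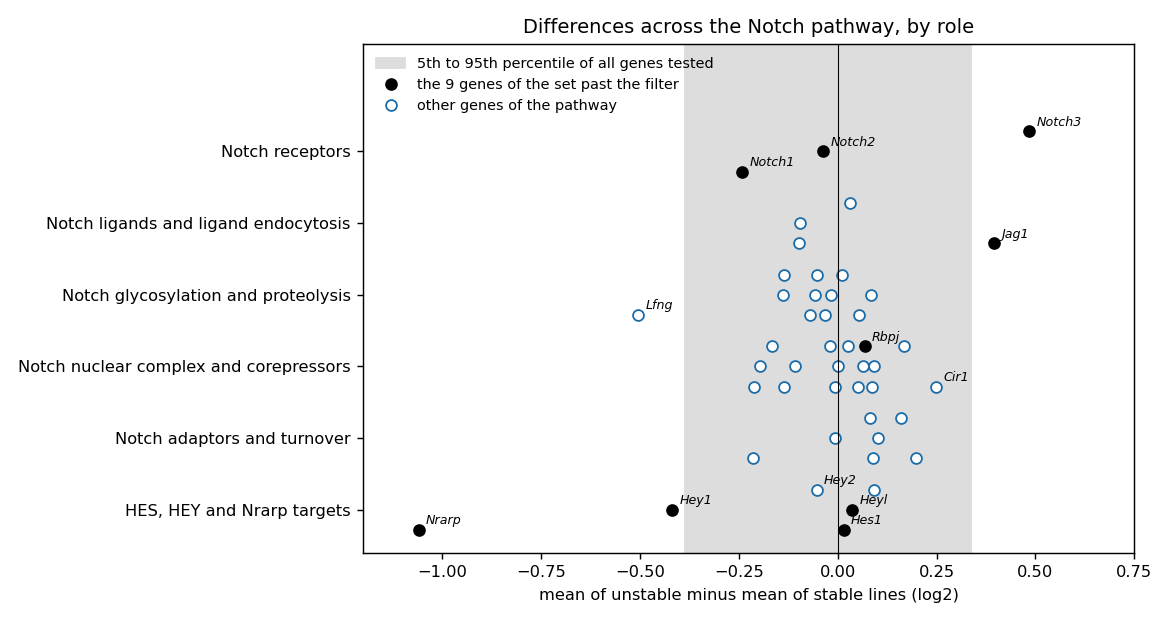
Mean of unstable minus mean of stable lines (x axis, log2) for each pathway gene past the filter, by role, with a shaded band for the central range of all genes (-0.39 to 0.34, the percentiles named in the legend). Nrarp, Hey1, Notch3 and Jag1 of the set and Lfng of the other genes lie outside the band. The set was picked from this contrast, so nothing is read from its place relative to the band.

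Lines of the same number were then compared with lines of other numbers, which the choice of the set does not fix either. With chromosome stability in the model, levels differed among the 3 pairs for 497 of 8382 genes (5.93%, adjusted p under 0.05 by limma's F test). That count rests on pair 9515: it was 1 without its unstable line, 1 without its stable line and 2 without both. Of the 9 genes 0 passed, with adjusted p from 0.061 for Hey1, 0.084 for Notch3, 0.102 for Jag1 and 0.126 for Nrarp to 0.521 for Hes1. Jag1 had the widest range of pair means in the set, 8.56, 9.35 and 8.32 in pairs 9515, 9938 and 10074, which is 2.05-fold. For Nrarp these means were 8.35, 8.20 and 7.43, so pair 10074 was lowest in both Nrarp and Hey1 (8.26, 7.96 and 7.57).

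Calls among the 9 genes changed with the fit. When probe sets were averaged within genes, Hey1 and Jag1 passed, where 564 of 8183 genes did. With an intensity trend and a robust prior Hey1 passed, where 953 of 8382 genes did. Without the unstable line 9938 Nrarp passed, where 559 of 8382 genes did, and without the stable line 9938 Nrarp and Heyl, where 548 did. Without both lines of that pair Nrarp and Hey1 passed, where 630 genes did.

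Hey2, a HEY repressor of heart and vessel, differed more between pairs than any gene of the set. It was the only 1 of the 38 other pathway genes to pass between pairs, where 5.93% of all genes did, so nothing is read from that count. It measured 9.31, 8.52 and 7.81 in unstable lines 9515, 9938 and 10074, against 9.50, 8.32 and 7.98 in stable lines. Pair 9515 was highest and pair 10074 lowest in both groups, a range of 2.83-fold (adjusted p = 0.020 by limma's F test). The unstable minus stable difference was -0.05, with an SE of 0.52 that includes the spread among pairs. With the pair number as a replicate block the SE was 0.11. The adjusted p was 0.152 without the unstable line 9515, 0.154 without the stable one and 0.225 without both. Macrophage markers were lowest in pair 9515, at the medians given above. Of the 11 past the filter, 9 differed among pairs by the same test, where 5.93% of all genes did. The part of macrophages in the Hey2 levels was not tested. Of other genes with levels that differed between pairs at a small unadjusted p, the coactivators Maml1 and Kat2b were lowest in pair 10074, at means of 10.24 and 10.06, and the atypical ligand Dlk1 was highest there, at 10.98; none passed (adjusted p = 0.115, 0.107 and 0.146 by limma).

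The genes most like Nrarp over the 6 lines were found by Pearson correlation of log2 levels among 811 genes with an SD of at least 0.5. The closest were Iqgap3, a scaffold of dividing cells (r = 0.965), Cenpf, a kinetochore protein (0.959), Hmmr, a hyaluronan and spindle-binding protein (0.939), Ilkap, a phosphatase of integrin-linked kinase (0.934), and Racgap1, a regulator of cytokinesis (0.923). The least alike were the interferon-induced GTPase genes Irgm2 (-0.985), Gbp3 (-0.951) and Gbp7 (-0.947). These values describe 6 lines that fall into pairs and into the same groups, and carry no p. Iqgap3, for example, measured 6.75, 6.51 and 5.87 in unstable lines 9515, 9938 and 10074, against 7.33, 7.19 and 6.88 in stable lines, with the unstable CDC20 line lowest as for Nrarp. Within the set, Hey1, whose SD was too small for that ranking, correlated with Nrarp at 0.93 and Notch1 at 0.705, while Hes1 did at -0.364 and Notch3 at -0.256.

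**Figure D4:**
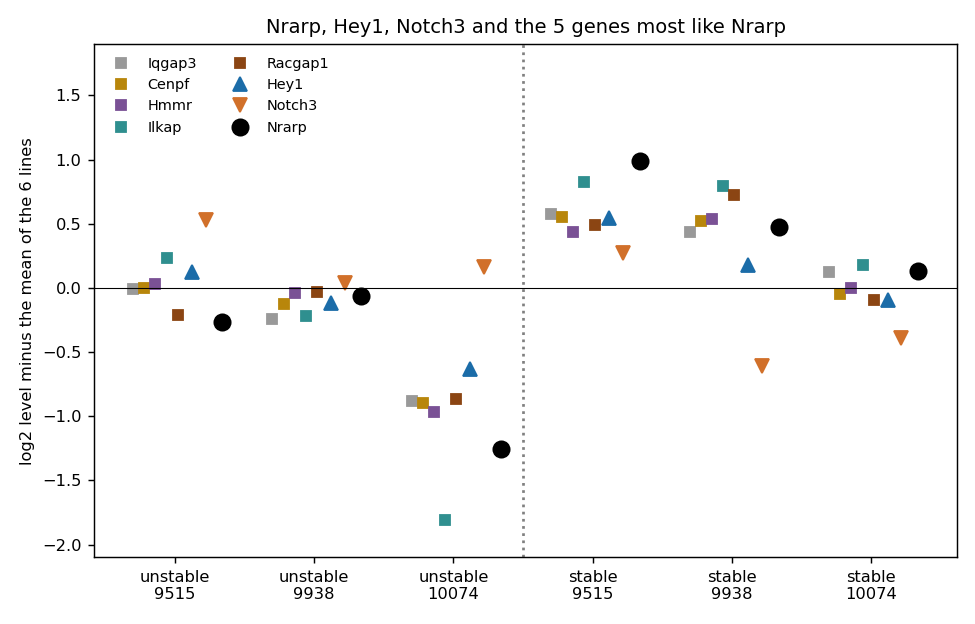
Log2 level minus the mean of the 6 lines (y axis) for Nrarp (circles), Hey1, Notch3 and the 5 genes most like Nrarp (squares) in each line, unstable left and stable right of the dotted line. The unstable CDC20 line is lowest for Nrarp, Hey1 and all 5 like genes, and not for Notch3.

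Proliferation genes, from a list of 10 of which 8 passed the filter, were lower in the unstable line of all 3 pairs in 8 of 8 cases, where 19.3% of all genes were, with pair medians of -0.14, -0.59 and -0.75 and a median of -0.51 over group means. Beside them, Nrarp differed by -1.25, -0.53 and -1.39 in the same pairs. Mcm5, a subunit of the replicative helicase, differed by -0.73 (SE 0.23) and the topoisomerase Top2a by -0.56 (SE 0.18), and neither passed (adjusted p = 0.999 by limma). The part of cell division in the Nrarp levels was not tested.

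Genes that respond to signals which share targets or partners with Notch were counted last. Among BMP-responsive genes the unstable mean was below the stable mean in 5 of 7 (median -0.08). Smad6, an inhibitor of that pathway, differed by -0.28 (SE 0.35, or 0.12 with the replicate block). The HLH inhibitor Id2 differed by 0.13 (SE 0.11, or 0.10 with the block). Of the Wnt-responsive list 3 of 10 passed the filter. Lgr5, an R-spondin receptor, measured 6.12, 7.90 and 7.15 in unstable lines 9515, 9938 and 10074, against 5.68, 7.65 and 9.23 in stable lines. The Wnt inhibitor Nkd2 differed by -0.11 (SE 0.29), and none of these 4 genes passed between unstable and stable lines (adjusted p = 0.999 each by limma).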

How the data were processed

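Per the labels' protocols, RNA of each line was column-purified, amplified, biotin-labelled and hybridised to 1 Affymetrix array. The deposited values are log2 values made by the authors with R 2.15.3 and GCRMA 2.28.0, per the submitters' processing notes. GCRMA removes background, quantile-normalizes the arrays and gives 1 value per probe set, so differences in overall brightness are lost. Array medians were 6.156 to 6.196.

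Of 22626 probe sets 20380 named 1 gene in the platform annotation, 691 several and 1555 were not listed; 0 symbols changed against RefSeq GRCm38.p6. A gene was represented by its probe set with the highest mean, and genes at log2 4 or more on 3 or more arrays were tested. Tests used limma 3.58.1 in R 4.3.3 with Benjamini-Hochberg adjustment, fitted on all genes. The code was run on simulated data with added effects larger than any difference of the set, so smaller effects were not tried there. An exact permutation test of 3 against 3 cannot go below 0.1 and was not used.

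The title numbers were taken to pair lines, since deviations from the group mean correlated across genes at 0.812, 0.681 and 0.602 within the 3 numbers. Standard errors come from fits without that block, except where the block is named, and so include the spread among pairs. Members, lists and the rules for naming genes were chosen with earlier results of these data known. Named besides the set were pathway genes past a threshold or with the 8 smallest p between groups or 4 smallest among pairs, the 5 most and 3 least like Nrarp, and 2 of each further list. Alternatives were other filters, probe set rules, normalization, variance priors, the block, and leaving out lines or pairs.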

Additional observations from a re-analysis of the deposited data

Results flagged for a closer look

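The Hes1 differences pointed one way in both BubR1 pairs (0.13 in each) and the other way in the CDC20 pair (-0.21). The difference between the effects, 0.33 (SE 0.16), did not pass limma's test over all genes (adjusted p = 0.9995).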

How the results depend on the processing

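With the pair number as a replicate block, 0 genes passed between unstable and stable lines, 0 between BubR1 H/H and BubR1 +/+ lines and 0 for the difference between effects, the same as without it; 1019, 719 and 476 genes then had an unadjusted p under 0.05 by limma. These 3 counts were 0 under every alternative run. CDC20 lines could not be left out of the BubR1 against CDC20 comparison. The 497 genes that differed among pairs became 249 without the term for chromosome stability and 953 with an intensity trend and a robust prior. They ranged from 1 to 559 when single lines were left out and from 2 to 630 when pairs were, with 1 or 2 only where pair 9515 lost a line or both. Of 120 recomputed differences of the set's genes, 0 moved by more than 1 SD, the pooled SD of the same lines. Leaving out 1 line of 3 cannot move a difference by that much, so this 0 is no measure of robustness. Of the 120, 19 changed sign, and those were of Notch2, Dll1, Hes1, Heyl and Rbpj. Nrarp, Notch1, Notch3, Jag1 and Hey1 kept their direction in 12 of 12 alternatives each, with Jag1 down to 0.03 without the unstable line 9938. Signal near the floor limits the second Nrarp and Jag1 probe sets.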
